A study of Mus musculus with 3 samples.

Results

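Described here are 6 genes of the T-box family in differentiating mouse embryonic stem (ES) cells: T, which encodes Brachyury, its relatives Eomes, Tbx6, Tbx3 and Tbx20, and Mga. They were chosen by name, as the rows of both deposited tables whose gene symbol is one of these, and make up 6 of 36808 rows in each table. The 3 groups were Brachyury knockdown EBs at day 4, control EBs at day 4 and ES cells at day 0, where EBs are embryoid bodies, the floating clusters formed by differentiating ES cells. All came from the mouse ES cell line D3. The labels give it an F1 hybrid strain of origin with C3H/HeH as a parent, which may be an error and was not checked. No source used here names the agent of the knockdown or says whether the cells were 1 clone. The labels call the control EBs and the ES cells wild type, whereas a column header calls the control EBs nontarget. With 1 library for each group there was no replicate to check a difference against, and none was tested.

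T-box proteins bind DNA through a shared domain and act as dose-sensitive regulators of germ layer formation. In the gastrulating mouse embryo WNT and NODAL signals switch on T and Eomes in the primitive streak, the site where mesoderm and endoderm form. Eomes is needed for definitive endoderm and cardiac mesoderm, T for the later streak and the notochord, and Tbx6 for paraxial mesoderm, where T and WNT signals act on it. Tbx3 belongs to the naive pluripotency network of ES cells, and Tbx20 is a heart regulator. Mga is an unusual family member that carries both a T-box and a basic helix-loop-helix zipper, pairs with MAX and forms part of the repressive Polycomb complex PRC1.6.

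Expression was deposited as FPKM, the number of fragments scaled by transcript length and by the fragments in the library, in 2 tables. The first table holds control EBs and ES cells, and the second holds knockdown EBs and control EBs, so the control library was quantified in both. FPKM summed to 760578 in knockdown EBs, 786277 and 781453 in the second and the first quantification of control EBs, and 568352 in ES cells, and the read depth is unknown. The control values of the 6 members differed between the tables by 6.17% for Tbx20, by 3.05% for Mga and by less than 1% for the other 4. The members lay on mm9 as follows, by the deposited loci. T (ENSMUSG00000062327) spanned 8627288 to 8635361 on chromosome 17, Tbx6 (ENSMUSG00000030699) spanned 133924997 to 133929062 on chromosome 7, and Mga (ENSMUSG00000033943) spanned 119722964 to 119795317 on chromosome 2. Eomes (ENSMUSG00000032446) spanned 118387330 to 118395250 and Tbx20 (ENSMUSG00000031965) spanned 24527648 to 24578746, both on chromosome 9. Tbx3 (ENSMUSG00000018604) spanned 120061272 to 120134733 on chromosome 5, a locus that also held 3 predicted genes. In the later GENCODE M21 annotation 1 gene on the opposite strand overlapped exons of Eomes and 1 overlapped those of Tbx3. No source used here says whether counting used strand, so these values can include antisense reads.

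A gene is called higher or lower by size alone, when FPKM + 1 differs by 2-fold or more (1 on the log2 scale) and 1 of the compared libraries reaches 1 FPKM. This scale understates the change of low genes, and ratios in the text are those of the FPKM. The error of a ratio was taken from the authors' p-value, as the spread on the natural log scale that gives this p under the assumption of a normal test of that ratio against no change in either direction. The 95% intervals made from it describe a pair of libraries, and culture-to-culture spread is not in them. In whole cultures fewer cells of a type and less RNA per cell cannot be told apart.

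The targeted gene comes first. T was at 2.47 FPKM in knockdown EBs, 254 FPKM in control EBs in either table and 0.297 FPKM in ES cells. The knockdown library held 0.970% of the control level (95% interval of the ratio 0.00276 to 0.0341), in the direction of its label, and the authors' deposited table gave p = 4.77e-13. Against ES cells, T was 857-fold higher in control EBs (interval 23.4 to 31343), with p = 0.000236 in the authors' deposited table. T ranked 11428th among all gene symbols in knockdown EBs, 473rd in control EBs and 14868th in ES cells. The knockdown and ES cell libraries are thus both low, and the control library alone is high.

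Eomes, the other streak factor, was within 2-fold between the EB libraries. It was at 29.7 FPKM in knockdown EBs, at 41.0 FPKM in control EBs in both tables and at 2.26 FPKM in ES cells. Its level in the knockdown was 72.5% of the control, with an interval of the ratio of 0.452 to 1.16, and p = 0.182 in the authors' deposited table. Against ES cells, Eomes was 18.1-fold higher in control EBs (interval 4.75 to 69.1).

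Tbx6 was the lowest of the streak and paraxial factors. It was at 0.316 FPKM in knockdown EBs and 1.56 FPKM in control EBs in either table, and listed at 0 in ES cells. Knockdown EBs thus had 20.3% of the level of control EBs, but the interval of that ratio ran from 0.00444 to 9.28, so neither a loss nor a gain can be told at this level. A listed 0 can be a failed estimate, and no fold is given against it.

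**Figure D1:**
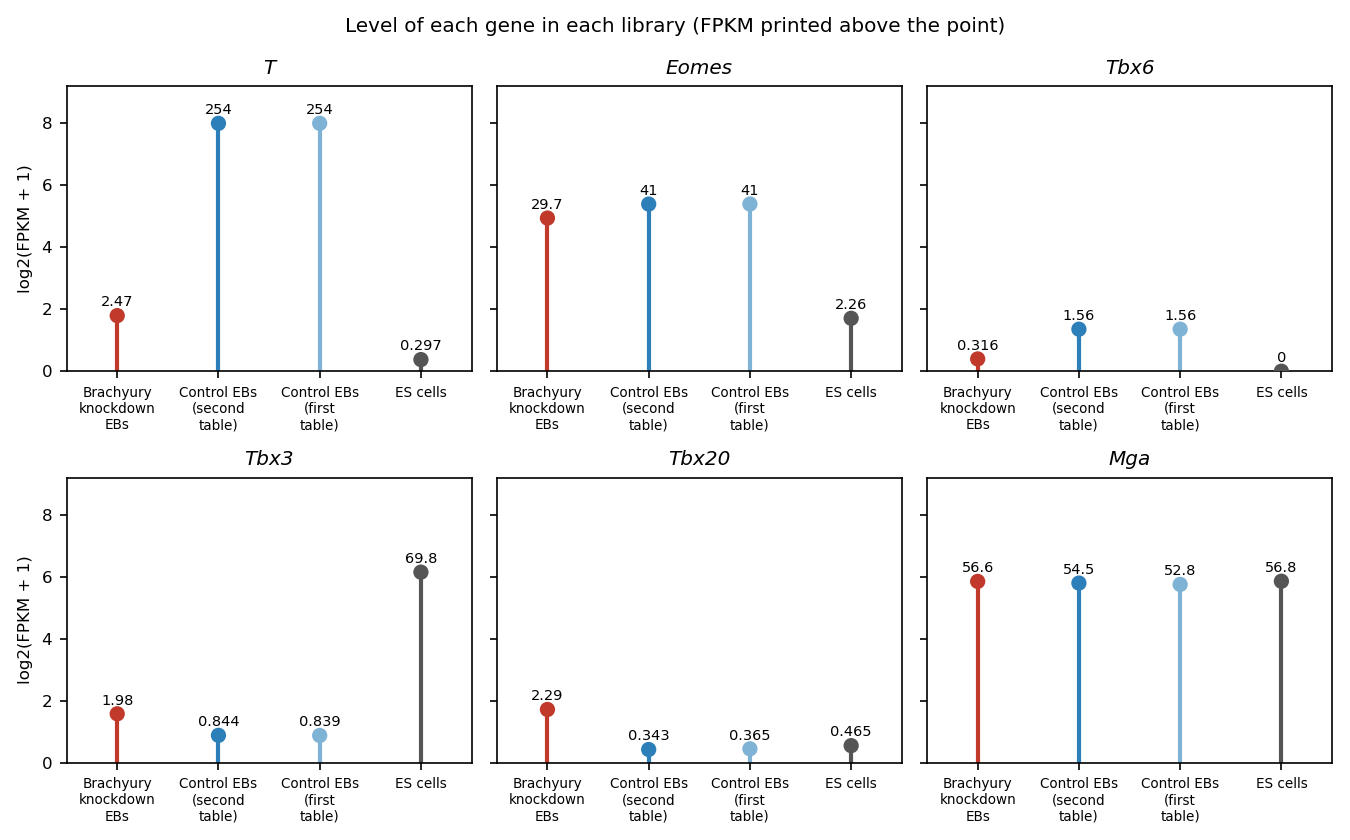
Level of each of the 6 genes as log2(FPKM + 1), with the FPKM printed above each point, in knockdown EBs, in control EBs as quantified in each table, and in ES cells (1 library each). T stands at 254 FPKM in control EBs against 2.47 FPKM in knockdown EBs, Tbx3 at 69.8 FPKM in ES cells, and Mga between 52.8 and 56.8 FPKM in every column.

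The promoters of T, Eomes and Tbx6 are shown because these were the members called higher in control EBs over ES cells, a call made for 15.8% of all genes compared. The sequences are the 250 bases before the RefSeq start of each gene on GRCm38.p6, read 5′ to 3′ on the strand of the gene, which is the plus strand for all 3. Capitals mark the matches described after them.
T, chromosome 17, 8434173 to 8434422: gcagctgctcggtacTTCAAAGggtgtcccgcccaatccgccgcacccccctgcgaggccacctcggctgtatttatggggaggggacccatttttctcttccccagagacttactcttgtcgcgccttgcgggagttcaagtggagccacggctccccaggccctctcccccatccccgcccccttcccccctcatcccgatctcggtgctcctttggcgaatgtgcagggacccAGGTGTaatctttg
Eomes, chromosome 9, 118477939 to 118478188: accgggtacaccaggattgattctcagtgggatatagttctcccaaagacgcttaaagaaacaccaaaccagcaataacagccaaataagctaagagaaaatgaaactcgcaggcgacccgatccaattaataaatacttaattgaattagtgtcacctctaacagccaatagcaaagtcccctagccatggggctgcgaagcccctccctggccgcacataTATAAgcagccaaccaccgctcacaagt
Tbx6, chromosome 7, 126781233 to 126781482: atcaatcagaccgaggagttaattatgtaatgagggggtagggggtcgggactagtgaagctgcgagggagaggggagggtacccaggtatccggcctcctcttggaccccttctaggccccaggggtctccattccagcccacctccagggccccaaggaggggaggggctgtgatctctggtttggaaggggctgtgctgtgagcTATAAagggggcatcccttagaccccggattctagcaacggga

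Motifs were searched on both strands of this window in 32851 promoters, which included 5 of the 6 members (all but Tbx3). The T promoter held the letters CTTTGAA, a form of the site of the TCF/LEF factors through which WNT signals act, on the minus strand at bases -235 to -229, where the printed strand reads TTCAAAG. This motif was present in 4.46% of all promoters and in no other member. The other form searched, CTTTGAT, was present in 3.21% of promoters and in no member. T also held AGGTGT, the core of the T-box element and contained in the longer form, at bases -14 to -9, as did 11.8% of all promoters. The longer element AGGTGTGA was in 1.12% of promoters and in none of the 5 members. The E-box CACGTG, which MAX and its partners bind, was in 6.02% of promoters and likewise in none of the 5. Eomes and Tbx6 each held TATAA on the plus strand, ending 24 and 39 bases before the start, and 22.8% of all promoters held it. The windows of T, Eomes and Tbx6 contained 14, 8 and 6 CG dinucleotides, those of Tbx20 and Mga 22 and 18, and the median promoter 6. A match is a run of letters and not a measured site.

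Tbx3 was low in both EB libraries and high in ES cells. It was at 1.98 FPKM in knockdown EBs, at 0.844 and 0.839 FPKM in the second and the first quantification of control EBs, and at 69.8 FPKM in ES cells. Control EBs had 83.3-fold less than ES cells (interval 9.43 to 735), with p = 6.93e-05 in the authors' deposited table. In knockdown EBs Tbx3 was 2.35 times the control level, an interval of 0.178 to 31.1 that spans both directions.

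Tbx20 was low everywhere. It was at 2.29 FPKM in knockdown EBs, 0.343 and 0.365 FPKM in the second and the first quantification of control EBs, and 0.465 FPKM in ES cells. It was 6.66-fold higher in knockdown than in control EBs and passed the size rule, while the interval of the ratio ran from 0.182 to 244 and the authors' deposited table gave p = 0.302. Among the 3947 genes whose higher library lay between 1 and 5 FPKM, 8.41% were called higher in the knockdown.

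Mga was at a similar level throughout. It was at 56.6 FPKM in knockdown EBs, 54.5 and 52.8 FPKM in the second and the first quantification of control EBs, and 56.8 FPKM in ES cells. The ratio was 1.04 in knockdown over control EBs (interval 0.716 to 1.51) and 0.929 in control EBs over ES cells (interval 0.639 to 1.35), so differences of 2-fold lie outside both intervals. The transcript of Mga with the longest coding sequence in GENCODE M21 has 13931 bases and 24 exons, against 2046 bases and 8 exons for T. FPKM times that length in kilobases, which follows the number of fragments, was 759 for Mga in control EBs, 520 for T and 2.38 for Tbx6, and Mga had the highest such value in all 3 libraries.

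**Figure D2:**
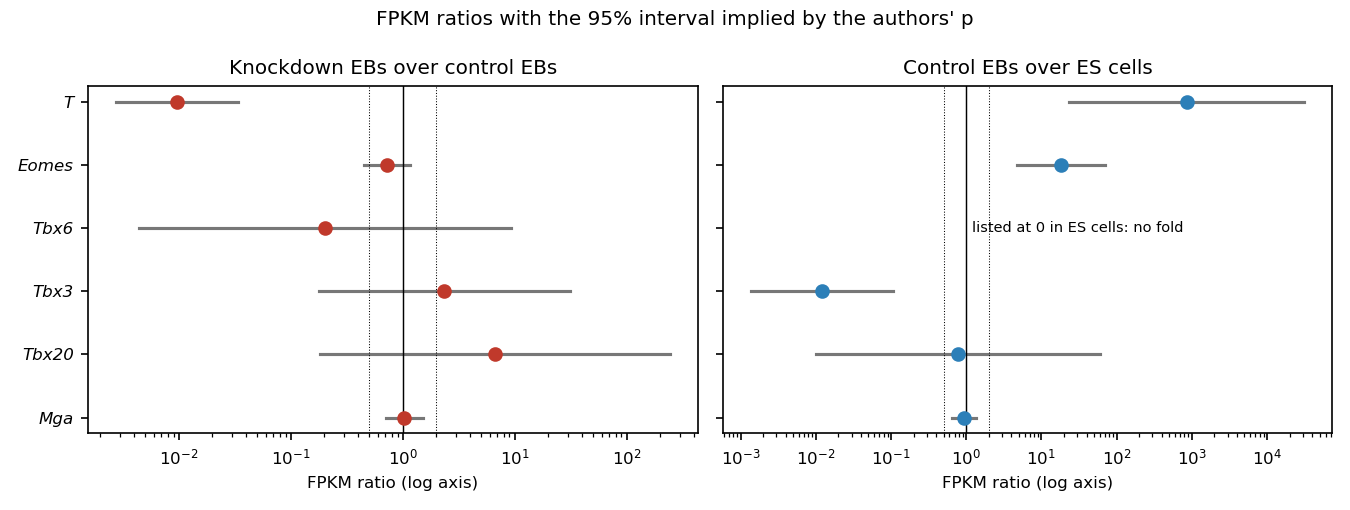
FPKM ratios of the 6 genes on a log axis, knockdown over control EBs at left and control EBs over ES cells at right; lines are the 95% intervals implied by the authors' p, and dotted lines mark 2-fold. At left the interval of T lies wholly below 1 and those of the other 5 span it, and at right those of T and Eomes lie above 1, that of Tbx3 below, and Tbx6, listed at 0 in ES cells, has no ratio.

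Counted together, 1 of the 6 members was lower (T) and 1 was higher (Tbx20) in knockdown than in control EBs, and the other 4 were within 2-fold on FPKM + 1, although the FPKM ratios of Tbx6 and Tbx3 were past it. Over all 13778 genes compared, 2.53% were lower and 5.34% were higher. The median difference in log2(FPKM + 1) was -0.20 over the 6 members and 0.06 over all genes. T was the target of the knockdown, so its call and its part in this median were set by the design. The others were at -0.96 (Tbx6), -0.45 (Eomes), 0.05 (Mga), 0.69 (Tbx3) and 1.29 (Tbx20), on either side of the median of all genes. In control EBs against ES cells 5 members reached 1 FPKM, of which 3 were higher (T, Eomes and Tbx6), 1 was lower (Tbx3) and Mga was within 2-fold. Over the 13932 genes compared there, 15.8% were higher and 19.5% were lower, so that 44.8% of called genes were higher. Scaling the libraries to equal sums of FPKM made that share 24.2% and moved the median of all genes by -0.41, to -0.51, with the direction of these 4 calls kept. Tbx20 was under 1 FPKM in both libraries of that table. The median was 1.36 over the 5 members and -0.10 over all genes. The value of 1.36 is that of Tbx6, which was listed at 0 in ES cells and reached 1 FPKM only in control EBs. With a pseudocount of 0.1 Tbx6 was at 4.05, so this median says little of the members as a set. The 2 comparisons share the control library, so they are not independent of each other.

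FPKM is a level per length, so the members can be listed in order within a library. The median errors quoted beside the order are those of 1 gene between 2 libraries. They do not measure the error between 2 genes of 1 library, so they serve as a yardstick only and do not decide the order. In knockdown EBs Mga led, followed by Eomes, T, Tbx20, Tbx3 and Tbx6. Among T, Tbx20 and Tbx3, between 1.98 and 2.47 FPKM, successive genes differed by at most 0.142 on the natural log scale. This was less than the median error of 0.905 for genes at 1 to 3 FPKM. In control EBs T led, followed by Mga, Eomes, Tbx6, Tbx3 and Tbx20. T was 4.66 times the level of Mga. Mga and Eomes differed by 0.285, less than 2 of the median errors of 0.182 for genes at 40 to 80 FPKM. Among Tbx6, Tbx3 and Tbx20 successive genes differed by 0.613 and 0.900, within the errors at such levels (0.905 at 1 to 3 FPKM and 2.01 at 0.2 to 0.5 FPKM). In ES cells Tbx3 led, followed by Mga, Eomes, Tbx20, T and Tbx6. Tbx3 and Mga differed there by 0.206, less than 2 of the median errors of 0.172 for genes at 40 to 80 FPKM, and Tbx20 and T by 0.449, within the error of 1.94 at 0.2 to 0.5 FPKM.

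The other 11 T-box genes listed were at 0 to 2.19 FPKM, so the 6 members carried nearly all of the family's summed FPKM. The members were chosen with earlier results of these data known, and not each of them stood above the others. Tbx1 was above Tbx3 and Tbx6 in knockdown EBs, and Tbx4, at 0.682 FPKM, was above Tbx20, T and Tbx6 in ES cells. The family of 17 summed to 96.9 FPKM in knockdown EBs, 352 FPKM in control EBs and 131 FPKM in ES cells. T made up 2.55% of this sum in knockdown EBs, 72.1% in control EBs and 0.227% in ES cells. Eomes made up 30.7%, 11.6% and 1.73% in the same libraries, and Mga 58.4%, 15.5% and 43.4%. Tbx3 made up 53.3% in ES cells. Of the 11 other genes, 6 were listed at 0 in knockdown EBs, 10 in control EBs and 8 in ES cells. The 1 that reached 1 FPKM was Tbx1, a regulator of pharyngeal development, at 2.19 FPKM in knockdown EBs and listed at 0 in both other libraries. The family was thus led by Mga and Eomes in knockdown EBs, by T and Mga in control EBs and by Tbx3 and Mga in ES cells.

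**Figure D3:**
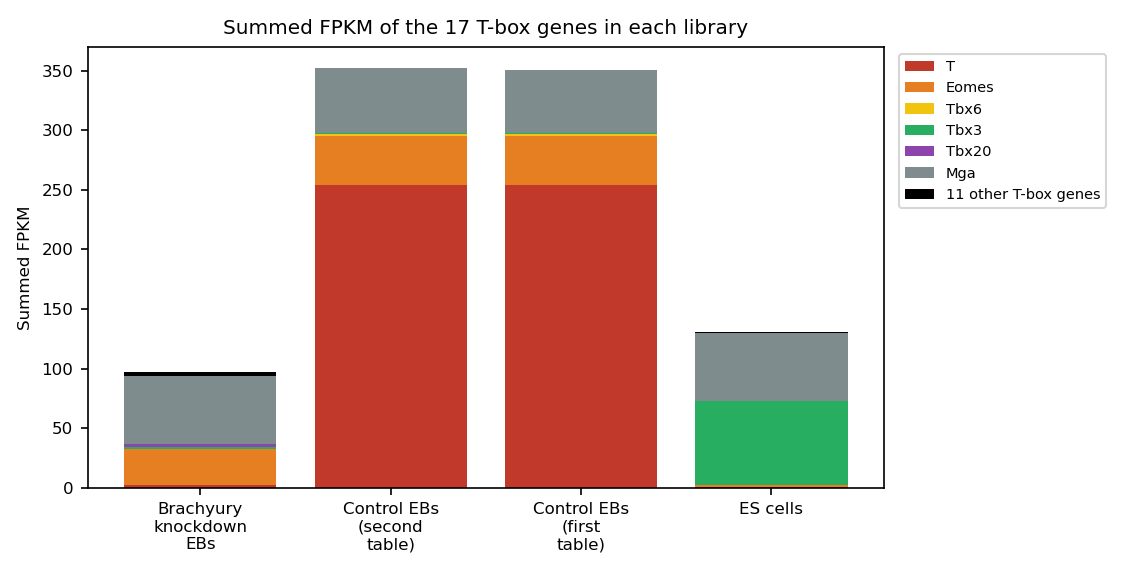
Summed FPKM of the 17 T-box genes in each library, stacked by gene (1 library each; the control library as quantified in each table). The sum is 96.9 FPKM in knockdown EBs, 352 and 351 FPKM in control EBs, where T takes 72.1% and 72.4%, and 131 FPKM in ES cells, where Tbx3 and Mga take 53.3% and 43.4%.

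Signals that induce the streak split in both directions. Of 9 measured genes of 10, 3 were lower and 2 were higher in knockdown than in control EBs, with a median of -0.74. Over all genes compared there, 2.53% were lower and 5.34% were higher, the shares to set beside this and the following list counts. Wnt3, a WNT ligand needed for streak formation, was at 1.51 FPKM in knockdown EBs and 6.44 FPKM in control EBs, and Fgf8, a growth factor of the streak, was at 48.1 and 183 FPKM. The fibroblast growth factor gene Fgf4 was at 8.12 FPKM in knockdown EBs and 0.847 FPKM in control EBs, and Gdf3, which encodes a NODAL-related ligand, was at 8.60 and 1.16 FPKM. Fgf4 and Gdf3 were at 63.6 and 28.9 FPKM in ES cells. The third lower gene was Tdgf1, the NODAL co-receptor, at 48.0 FPKM in knockdown EBs and 138 FPKM in control EBs. Between control EBs and ES cells 2 of 9 genes were higher and 5 were lower in control EBs (median -1.19). Over all genes 15.8% were higher and 19.5% were lower in that comparison, shares that apply to the following lists as well. With a 3-fold rule 3 of the list were called in the knockdown, against 5.

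By the 2-fold rule most measured genes described downstream of T or Tbx6 were lower in the knockdown. Of 15 measured genes of 22, 10 were lower and 0 were higher, with a median of -1.25 against 0.06 over all genes. The list was chosen with earlier results of these data known, which limits this contrast. The lower genes were 7 of 9 measured at a floor of 5 FPKM, and 7 of 15 with a 3-fold rule. Ripply2 and Noto, at 1.37 and 1.21 FPKM in control EBs and listed at 0 in knockdown EBs, reached 1 FPKM only in control EBs. The retinoic acid hydroxylase gene Cyp26a1 ran the other way, at 112 FPKM in knockdown EBs and 55.5 FPKM in control EBs. It missed the size rule narrowly and was called higher with pseudocounts of 0.1 and 0.5 and with scaling to the sum of FPKM. Dll1, a Notch ligand gene, was at 3.36 FPKM in knockdown EBs and 2.17 FPKM in control EBs. Wnt8a, a WNT ligand of the streak, was at 0.604 FPKM in knockdown EBs and 20.8 FPKM in control EBs, and Foxj1, a regulator of motile cilia in the node, was at 1.96 and 25.4 FPKM. The WNT agonist gene Rspo3 was at 1.32 FPKM in knockdown EBs and 13.7 FPKM in control EBs, and the WNT target Sp5 was at 1.77 and 14.4 FPKM. In control EBs against ES cells 12 of 16 measured genes were higher and 0 were lower (median 2.24). Wnt3a, a streak ligand of the same list, stayed under 1 FPKM in all 3 libraries, as did Msgn1 and Cdx4. Fgf8 counts in this list and among the streak signals, and Foxa2 and Mesp1 in this list and the next.

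Genes described downstream of Eomes were split in the knockdown, with 5 of 12 higher and 2 lower (median 0.78). The lower ones were Mixl1, a streak homeobox gene at 3.10 FPKM in knockdown EBs and 12.0 FPKM in control EBs, and Foxa2, a forkhead gene of node and endoderm, at 17.4 and 42.8 FPKM. Hhex, an early endoderm gene, was at 23.9 FPKM in knockdown EBs and 8.16 FPKM in control EBs, and Foxa1 was at 7.22 and 2.39 FPKM. In control EBs against ES cells 8 of 12 were higher and 2 were lower (median 2.69). Cer1 and Gsc, listed at 0 in ES cells, were at 56.7 and 42.1 FPKM in control EBs. Sox17, an endoderm gene called lower there and higher in the knockdown, is uncertain, since the first table gave the control library 0.312 FPKM and the second gave it 26.3 FPKM, the value that the first table gives ES cells. Of 196 rows whose control value differed over 2-fold between the tables, it was the 1 with this pattern. With a 3-fold rule 1 gene of this list was called in the knockdown, against 7. Gata4 and Gata6 count here and among the cardiac genes.

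Of the naive network to which Tbx3 belongs, all 11 measured genes of 12 were lower in control EBs against ES cells (median -4.68). Esrrb, an orphan nuclear receptor gene, was at 1.30 FPKM in control EBs and 169 FPKM in ES cells, and Gbx2 was at 0.218 and 70.9 FPKM. In knockdown against control EBs 7 of 11 were higher and 0 were lower (median 1.28). The count was 4 of 6 measured at a floor of 5 FPKM, and 3 of 11 with a 3-fold rule. Nr0b1 was at 5.89 FPKM in knockdown EBs and 0.417 FPKM in control EBs, and Zfp42 was at 28.5 and 5.51 FPKM. Of the higher genes, Nr0b1, Prdm14, Dppa3 and Gbx2 reached 1 FPKM in knockdown EBs but not in control EBs. Among measured genes not called, Klf4 and Tcfcp2l1 ran upward, whereas Nanog and Klf5 ran downward. Nanog was at 91.7 FPKM in knockdown EBs and 128 FPKM in control EBs, and Klf5 was at 4.97 and 6.49 FPKM. Tbx3 itself had 1.98 and 0.844 FPKM there, within 2-fold on FPKM + 1.

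Of the cardiac genes described with Tbx20, 7 of 13 were under 1 FPKM in both EB libraries, 4 of them listed at 0 in both. Of the 6 measured in the knockdown comparison 2 were higher and 1 was lower (median 0.75). In all, 1 of 4 measured was called at a floor of 5 FPKM, and 1 of 6 with a 3-fold rule. Isl1, a cardiac progenitor and neural gene, was at 4.36 FPKM in knockdown EBs and 0.325 FPKM in control EBs, and Gata6 was at 18.8 and 7.76 FPKM. Actc1, the cardiac actin gene, was at 0.295 FPKM in knockdown EBs and 2.18 FPKM in control EBs. Tnnt2, Nkx2-5 and Tbx5, genes of the heart muscle lineage, were listed at 0 in both EB libraries. Myl7, of the same list, was at 5.02 FPKM in knockdown EBs, 3.12 FPKM in control EBs and 3.99 FPKM in ES cells. In control EBs against ES cells 2 of 5 measured genes were higher and 1 was lower (median -0.28). At a floor of 5 FPKM 1 of 2 measured was called.

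The 13 partners of Mga in PRC1.6 were within 2-fold of the control in the knockdown, with a median of 0.10. Over all genes 7.87% were called in either direction there, so a count of 0 among 13 is near the background. The largest difference was that of Max, the dimer partner of Mga, at 23.8 FPKM in knockdown EBs and 17.5 FPKM in control EBs. Set against ES cells, control EBs had 4 of the 13 lower and 1 higher (median -0.34), 2 in all with a 3-fold rule. Max was at 17.5 FPKM in control EBs and 40.5 FPKM in ES cells, and L3mbtl2 was at 11.9 and 40.3 FPKM. Wdr5 and Rybp were the other lower genes, and Yaf2, a RYBP homologue, was the higher one, at 20.6 FPKM in control EBs and 3.57 FPKM in ES cells. The 5 of 13 called are near the 35.4% of all genes called in this comparison.

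Of the germ cell genes described as silenced by PRC1.6, 10 of 12 were measured in control EBs against ES cells, where 8 were lower and 1 was higher (median -2.23). Mael, a gene of the germline piRNA pathway, was at 0.406 FPKM in control EBs and 14.1 FPKM in ES cells, and Dazl was at 0.0869 and 6.07 FPKM. In knockdown against control EBs 4 of 7 were higher and 0 were lower (median 1.03). The count was 1 of 3 measured at a floor of 5 FPKM, and 0 of 7 with a 3-fold rule. Stag3 was at 14.5 FPKM in knockdown EBs and 6.16 FPKM in control EBs, and Ddx4 was at 2.20 and 0.487 FPKM. The other higher genes, Mael and Smc1b, were at 2.10 and 1.91 FPKM in knockdown EBs and 0.406 and 0.421 FPKM in control EBs, levels at which the errors given for genes under 3 FPKM apply.

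**Figure D4:**
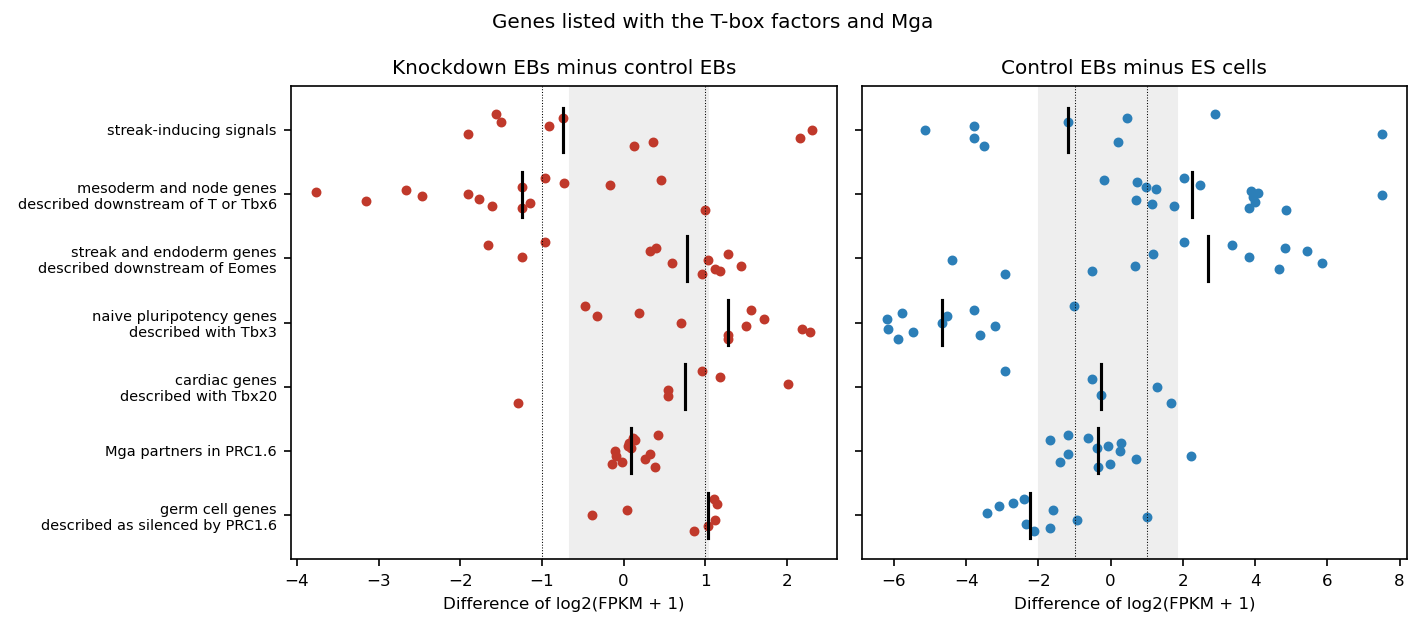
Difference in log2(FPKM + 1) of each measured gene of 7 lists, knockdown minus control EBs at left and control EBs minus ES cells at right; bars are list medians, the grey band runs from the 5th to the 95th percentile of all genes and dotted lines mark 2-fold. Genes described downstream of T or Tbx6 lie mostly to the left in the knockdown (median -1.25), whereas the 13 Mga partners lie between the dotted lines.

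Genes were ranked by how closely their profile over the 3 libraries matched that of a member, as the distance between log2(FPKM + 1) values centred on each gene's mean, among 10651 genes with at least 5 FPKM in a library. The control value was the mean of the tables, and Tbx6 and Tbx20 did not reach that level. For T the nearest was Cxx1c, at 2.12 FPKM in knockdown EBs, 96.7 FPKM in control EBs and 0.328 FPKM in ES cells, at a distance of 1.09. Cxx1c has close paralogs among which reads can be shared. Igfbp3, Alox15, Fgfbp1 and Aplnr followed, at distances of 1.97 to 2.39, and 0 genes lay within 0.5 of T. For Eomes 53 genes lay within 0.5, the nearest being Cda (9.30, 12.3 and 0 FPKM in knockdown EBs, control EBs and ES cells), followed by Pik3ip1, Lpar6, Tspan6 and Slc15a2. For Tbx3 there were 8, the nearest being Inhbb, Mras, Dusp27, Rpl39l and Aard. For Mga there were 4149, led by Tssc1, Nmt1, Exd2, Rasa1 and Ppp1r14b. These counts depend on how far a profile ranges, which among these 4 members is farthest for T and least for Mga.

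Markers were read for the cell types that the cultures could hold. The 6 ES cell markers summed to 552 FPKM in knockdown EBs, 617 FPKM in control EBs and 1937 FPKM in ES cells, mostly Pou5f1 (361, 390 and 1058 FPKM). Of the 5 measured in the knockdown comparison 1 was higher, Zfp42, and 0 were lower (list median -0.11). Sox2 was listed at 0 in all 3 libraries, in ES cells as well. Eomes is also a gene of trophoblast and visceral endoderm. The 8 trophoblast markers summed to 207, 245 and 36.7 FPKM in knockdown EBs, control EBs and ES cells, mostly the epithelial keratin gene Krt8 (193, 241 and 24.8 FPKM). Of the defining ones, Elf5 was at 2.93 FPKM in knockdown EBs and listed at 0 in control EBs and ES cells, and Cdx2 was at 0, 0.188 and 0.302 FPKM. Of the 5 trophoblast genes measured in the knockdown comparison 3 were higher, Elf5, Gata3 and Ascl2 (list median 1.34). At a floor of 5 FPKM 0 were called, and Krt8, the 1 gene left, was at -0.31. The 8 visceral endoderm markers summed to 18.2, 8.36 and 21.5 FPKM, with Hnf4a at 12.2, 0.250 and 4.10 FPKM and Afp at 0, 0.0966 and 0 FPKM. Without Hnf4a the sums were 5.97, 8.11 and 17.4 FPKM. In the knockdown comparison 2 of the 5 measured visceral endoderm markers were higher, Hnf4a and Apoa1, and 0 were lower. Apoa1 was at 2.92 FPKM in knockdown EBs and 0.271 FPKM in control EBs. The list median was -0.41. Amn, within 2-fold on FPKM + 1, was at 1.04 FPKM in knockdown EBs and 2.82 FPKM in control EBs. With pseudocounts of 0.1 and 0.5, Amn and Cubn were called lower. At a floor of 5 FPKM Hnf4a was the 1 gene left, called higher, so the sign of the median depends on the floor. Of the 7 fibroblast markers, Col3a1 and Lum were listed at 0 in all 3 libraries, and the sums were 16.1, 4.12 and 2.91 FPKM, with Dcn at 9.12 FPKM in knockdown EBs. Without Dcn the sums were 6.95, 3.87 and 2.91 FPKM, mostly Thy1 (6.45, 3.30 and 2.72 FPKM). Of the 2 fibroblast markers measured in the knockdown comparison 1 was higher, Dcn, and 0 were lower. The part of such cells in the values of Eomes, Tbx3 and Tbx20 was not tested.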

How the data were processed

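Messenger RNA from 3 mouse libraries, 1 per group, was extracted with TRIzol LS and prepared with an Illumina kit, per the labels' protocols. Bowtie, Cuffdiff and mm9 come from the submitters' processing notes, without versions or the annotation. The authors deposited FPKM in 2 tables, with the natural log of the fold change and a p-value without adjustment, per the file headers. The log was recomputed from the FPKM and differed by at most 5.00e-05. Columns were matched to samples by name: EBs of day 4 in the first table are read as the control EBs.

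Rows of short RNAs were left out and rows of 1 symbol were summed. Differences were taken within a table as log2(FPKM + 1), with a floor of 1 FPKM, and no test was run. The authors' p was 0 for genes at 0 in 1 library, and such ratios have no interval. Of 134 list entries, 132 were found by symbol and 2 by gene ID. The named genes were the 6 members, up to 4 genes per list with the greatest difference in each comparison, and the 5 nearest genes per member with at least 5 FPKM, leaving out predicted genes and those with over 1.5-fold between the tables' control values; others were chosen after their values were seen, as were the motifs other than AGGTGTGA and CACGTG. Members and lists were chosen with earlier results of these data known. Calling was tested on simulated data with folds of 3 or more planted, in either direction, in genes at 5 FPKM or more. The noise set there was smaller than the median errors given above, so that test does not bear on the calls of low genes. Promoters are from RefSeq on GRCm38.p6, and exon numbers and lengths from GENCODE M21. Python 3.11.15, pandas 2.3.3 and scipy 1.17.1 were used. No protein sequences were used. Alternatives were other pseudocounts, floors, scalings and call rules.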

Additional observations from a re-analysis of the deposited data

How the results depend on the processing

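T kept its direction and size rule call in both comparisons under every alternative run, at -6.63 to -6.16 in knockdown against control EBs and 7.35 to 9.32 in control EBs against ES cells. Members called in the knockdown comparison numbered 2, and 4 with a pseudocount of 0.1 (Tbx6 at -1.99 and Tbx3 at 1.14 were added), 3 with a pseudocount of 0.5 (Tbx6 at -1.33 was added), 1 with a floor of 5 FPKM, 1 with a 3-fold rule and 1 by the authors' p under 0.05 (Tbx20 was lost in all 3). All genes called there numbered 1085, and 1711 with a pseudocount of 0.1, 634 with a floor of 5 FPKM and 422 with a 3-fold rule. In control EBs against ES cells 4 members were called, or 3 with a floor of 5 FPKM or a 3-fold rule, where Tbx6 was lost, and genes called numbered 4928, and 2173 with a 3-fold rule. With libraries scaled to equal sums of FPKM, Mga was at -0.55 there and still within 2-fold. With profiles as shares of the highest library, the 5 nearest genes shared 2 with those given for T, 1 for Eomes, 2 for Tbx3 and 5 for Mga. Levels near 1 FPKM limit what can be said of Tbx6, Tbx20 and, in EBs, Tbx3. No paired analysis was possible because each group was 1 library.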
